A study of Homo sapiens with 12 samples.

Results

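The genes described here encode the enzymes that hydroxylate collagen chains inside the cell and cross-link collagen and elastin outside it. They are the catalytic subunits of collagen prolyl 4-hydroxylase (P4HA1, P4HA2 and P4HA3), the lysyl hydroxylases (PLOD1, PLOD2 and PLOD3) and 4 lysyl oxidases (LOX, LOXL1, LOXL2 and LOXL3). The 10 genes were taken by symbol from the 28278 genes of the count table, and 9 of them had enough counts to be tested. The lowest count of any of those 9 genes was 55 reads, for LOX in a WT library, so no gene entered the test only through a group in which it was high. The exception was P4HA3, which had 4 reads in 1 untreated UBQLN1-/- library and 0 in the other 7 libraries. At the depth of these libraries a count of 0 allows a P4HA3 level of up to 0.0729 to 0.100 CPM (counts scaled to a common library total, the usual unit of these data), counting error only. This takes each read as independent. TLL1, another gene with few reads (4 to 20), had an even count in each of the 8 libraries. Reads counted in pairs, which was not tested, would make this bound too low.

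All samples were bulk RNA-seq libraries of WA26, a human embryonic stem cell (hESC) line, with or without a CRISPR/Cas9 deletion of UBQLN1, a carrier of ubiquitin-tagged proteins to the proteasome. The 4 groups analysed held 2 libraries each: WT hESCs at normal O2 (20% per the study's text), UBQLN1-/- hESCs at normal O2 without treatment (untreated KO), UBQLN1-/- hESCs at 5% O2, and UBQLN1-/- hESCs with the antioxidant N-acetyl-L-cysteine (NAC). The study asked whether less oxygen or an antioxidant relieves the effects of UBQLN1 loss. The study's text describes 2 clones per genotype and a DMSO vehicle for NAC, but the labels tie no library to a clone and name no vehicle, so the p-values cover only the spread between these libraries, which may be technical. The study's text gives the 5% O2 culture in hours at one place and in passages at another, and the treated WT samples were not analysed here, which leaves each treatment response below as that of the KO cells.

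Collagen prolyl 4-hydroxylase converts proline to 4-hydroxyproline, without which the collagen triple helix is not stable at body temperature. Its catalytic alpha subunits, P4HA1 to P4HA3, work in a tetramer with P4HB, also known as protein disulfide isomerase. Lysyl hydroxylases modify lysines that later carry sugars or become cross-links, and PLOD2 acts mainly on the telopeptides at the chain ends. Both enzyme families use molecular oxygen, iron and 2-oxoglutarate, as do the enzymes that mark hypoxia-inducible factor (HIF) for destruction, and P4HA1, P4HA2, PLOD2 and LOX are textbook HIF targets. Lysyl oxidases are copper enzymes that oxidise lysines of collagen and elastin after secretion.

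Library totals ran from 31236968 to 41639350 counts. UBQLN1 itself stood at 209 ± 17.3 CPM in WT cells (SD, n = 2) and 42.9 ± 0.850 CPM in untreated KO cells, a log2 fold change of -2.29 (SE 0.12, adjusted p = 2.52e-06 by the quasi-likelihood F test of edgeR, adjusted after Benjamini and Hochberg, the test used throughout). A total of 7 pluripotency genes were detected in every library, with summed levels of 4189 to 5534 CPM, the lowest being both NAC libraries. Among them DNMT3B averaged 1277 CPM with NAC against 2504 CPM in untreated KO cells. Between these groups 2 of the 7 were called higher with NAC (ZFP42 and TDGF1) and 2 lower (DNMT3B and NANOG), beside 23.8% and 20.8% of all genes. The 2 early ectoderm, 2 mesoderm and 3 endoderm genes summed to at most 11.1, 4.71 and 0.873 CPM. The first NAC library stood apart from all others. Of 10 mesenchymal marker genes, none was at 0 there, against 3 or 4 at 0 in each other library, and their sum was 616 CPM against 371 to 441 CPM elsewhere, most of it THY1, a surface protein that hESCs also carry. The matrix proteoglycans DCN and LUM and the transcription factor PRRX1 had 1809, 148 and 403 reads in that library and 0 in the other 7. Endothelial markers (5 genes) summed to 52.7 to 126 CPM, highest in WT cells, and most of it was KDR. KDR stood at 118 ± 3.61 CPM in WT and 67.8 ± 0.0634 CPM in untreated KO cells. PECAM1 and CDH5 averaged at most 0.0559 and 0.190 CPM in any group. TEK was lower and VWF higher in untreated KO than in WT cells, neither called. The enzymes' results that turn on that library are given with and without it.

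On a scale of CPM per kilobase of transcript, which allows genes to be compared, the highest levels in untreated KO cells were those of PLOD1 (28.1 ± 0.534, n = 2) and LOXL2 (26.9 ± 0.846), which differed by little more than their spread. PLOD3 followed at 17.7 ± 0.473 and P4HA1 at 13.6 ± 0.477. LOXL3 at 9.91 ± 0.210, PLOD2 at 9.53 ± 0.108 and LOXL1 at 8.26 ± 0.720 lay close together, and LOXL3 and PLOD2 differed by little more than their spread. P4HA2 was far lower at 1.74 ± 0.0910, and LOX, the founding member of its family, was the lowest gene tested at 0.338 ± 0.00477 CPM per kilobase. The obligate partner of the P4HA subunits, P4HB, which also works as a free disulfide isomerase, stood at 252 ± 11.5 on the same scale. At 5% O2 the order changed: P4HA1 rose to 40.4 ± 0.631 CPM per kilobase and lay above PLOD1 at 31.5 ± 0.549 and LOXL2 at 28.1 ± 0.0897. With NAC the P4HA1 level was 34.5 ± 11.0 CPM per kilobase and overlapped that of PLOD1 at 33.6 ± 1.21. The plot of CPM by library shows the level of each gene in every library.

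**Figure D1:**
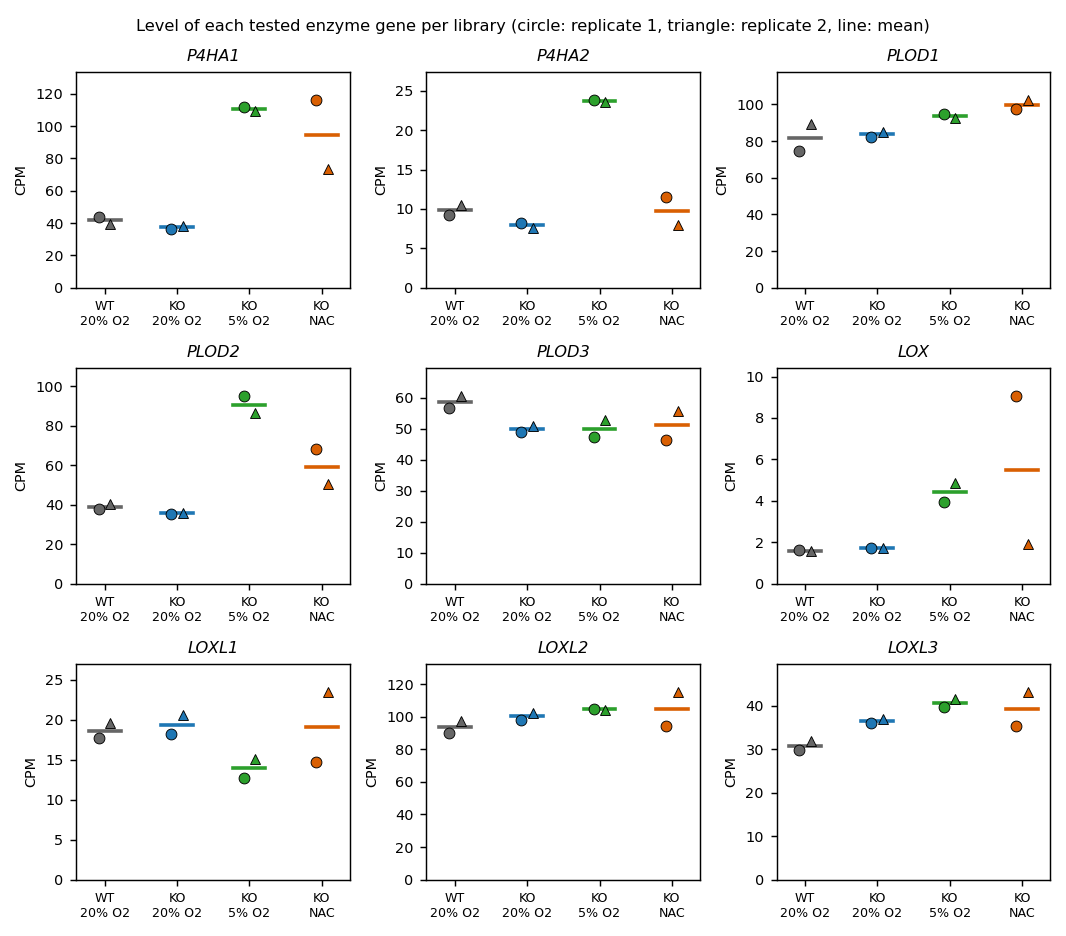
Expression of the 9 tested genes in each of the 8 libraries, in CPM on linear axes that start at 0, with a panel per gene. Circles are the first and triangles the second library of a group, and lines are group means. P4HA1, P4HA2 and PLOD2 lie high in both 5% O2 libraries. P4HA1 (116 CPM) and LOX (9.06 CPM) are highest in the first NAC library. LOXL1 has its lowest group mean at 5% O2 (12.7 and 15.1 CPM), and its first NAC library is at 14.7 CPM.

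Loss of UBQLN1 at normal O2 was not accompanied by a detectable change in any of the 9 genes. None passed an adjusted p of 0.05 and none had an unadjusted p under 0.05, and DESeq2 likewise called 0. Over all genes 1.96% passed the adjusted and 17.6% the unadjusted threshold. With a trend in transcript length and GC content removed, 1 of the 9 had an unadjusted p under 0.05, beside 2541 of 15916 genes. Some of the 9 also met that threshold without the first NAC library, and none was called in either fit. P4HA1 was at 43.6 and 39.7 CPM in the WT libraries and at 36.5 and 38.3 CPM in the untreated KO libraries, and PLOD2 at 37.6 and 40.3 against 35.4 and 36.0 CPM. For both genes the KO libraries were slightly lower, with log2 fold changes of -0.15 (SE 0.17, adjusted p = 0.683) and -0.12 (SE 0.13, adjusted p = 0.675). The largest differences were those of P4HA2, at 9.23 and 10.5 against 8.21 and 7.63 CPM (log2 fold change -0.32, SE 0.18, adjusted p = 0.394), of LOXL3, at 29.9 and 31.8 against 36.0 and 37.1 CPM (0.25, SE 0.11, adjusted p = 0.292), and of PLOD3, at 56.6 and 60.5 against 49.0 and 50.9 CPM (-0.23, SE 0.11, adjusted p = 0.307). The groups did not overlap for these 3 genes, but with 2 libraries a group that is common: it held for 54.7% of all genes here, and for 60.9%, 70.2% and 62.7% in the comparisons of 5% O2 with normal O2, NAC with no treatment and NAC with 5% O2 below. LOX had 55 to 70 reads in each of these 4 libraries and a standard error of 0.54 on the log2 scale. COLGALT2, with 45 to 73 reads in the same libraries, had a standard error of 0.34. The fit shares its estimate of spread over all groups, and the NAC libraries held 347 and 57 reads of LOX. A LOX log2 fold change of 1.36 (SE 0.52) was not called at 5% O2 below, so changes well above 1 standard error could have gone unseen.

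Culture of UBQLN1-/- hESCs at 5% O2 raised 3 of the 9 genes: the prolyl 4-hydroxylase subunits P4HA1 and P4HA2 and the telopeptide lysyl hydroxylase PLOD2. Over all genes, 3.68% were called higher, 4.13% lower and 7.81% in either direction. P4HA1 (chr10:73007217-73096974, minus strand, hg38, GENCODE v44) rose from 36.5 and 38.3 CPM to 112 and 109.6 CPM. P4HA2 (chr5:132190147-132295315, minus strand) rose from 8.21 and 7.63 CPM to 23.8 and 23.6 CPM. PLOD2 (chr3:146035139-146163725, minus strand) rose from 35.4 and 36.0 CPM to 94.9 and 86.2 CPM. In all 3 genes both 5% O2 libraries lay far above both untreated libraries and close to each other. The log2 fold changes were 1.57 for P4HA1 (SE 0.17, adjusted p = 0.000684), 1.58 for P4HA2 (SE 0.18, adjusted p = 0.00112) and 1.34 for PLOD2 (SE 0.13, adjusted p = 0.000368), that is 2.96-fold for P4HA1 and 2.54-fold for PLOD2. In bulk libraries, more RNA per cell and more cells that express a gene cannot be told apart.

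The other lysyl hydroxylases did not follow PLOD2. PLOD1, which acts on lysines of the helical part, was at 82.5 and 84.8 CPM without treatment and at 95.03 and 92.7 CPM at 5% O2 (log2 fold change 0.17, SE 0.10, adjusted p = 0.332). PLOD3, which also transfers sugars to hydroxylysine, was at 49.0 and 50.9 CPM against 47.2 and 52.9 CPM (0.0026, SE 0.11, adjusted p = 0.992), and its groups overlapped. As shares of the summed lysyl hydroxylase level per kilobase, PLOD2 went from 17.2% ± 0.156 in untreated KO cells to 32.9% ± 1.90 at 5% O2 (SD, n = 2), PLOD1 from 50.8% ± 0.0566 to 42.9% ± 0.304 and PLOD3 from 32.0% ± 0.212 to 24.2% ± 2.21. The family's summed level went from 54.6 and 56.1 to 74.0 and 72.9 CPM per kilobase. In the prolyl 4-hydroxylases both subunits rose by nearly the same factor, so that P4HA1 kept 88.5% ± 1.08 of the family sum without treatment and 88.6% ± 0.0990 at 5% O2, while the sum itself went from 15.2 and 15.7 to 46.1 and 45.1 CPM per kilobase.

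Among the lysyl oxidases, no gene passed the test at 5% O2. LOX (chr5:122063195-122078413, minus strand), which has the fewest reads of the tested genes, went from 1.73 and 1.70 CPM (64 and 70 reads) to 3.95 and 4.86 CPM (161 and 156 reads), without overlap between the groups. Its log2 fold change was 1.36 (SE 0.52), with an unadjusted p of 0.0235 and an adjusted p of 0.131. The adjusted p fell to 0.00397 or 0.00211 when the first or the second NAC library was left out of the fit and to 0.00338 when only the 4 libraries compared were fitted, with the log2 fold change at 1.35 to 1.36 in each. Over all alternatives the adjusted p of LOX ran from 0.000303, without a filter on low counts, to 0.398, without the second untreated KO library. DESeq2 gave LOX an unadjusted p of 0.00532 and no adjusted p. LOXL1, a lysyl oxidase of elastic fibres, lay at 18.2 and 20.6 CPM without treatment and 12.7 and 15.1 CPM at 5% O2, the other way from LOX (log2 fold change -0.48, SE 0.20, adjusted p = 0.156). Its adjusted p was 0.0201 and 0.0207 without the first and the second NAC library. LOXL2, which acts on the collagen IV of basement membranes, was at 98.0 and 102 CPM against 105 and 104 CPM (0.06, SE 0.10, adjusted p = 0.771). LOXL3 was at 36.0 and 37.1 CPM against 39.9 and 41.5 CPM (0.15, SE 0.11, adjusted p = 0.437). LOXL2 thus made up 59.0% ± 0.559 of the lysyl oxidase level per kilobase, LOXL4 included, in untreated KO cells and 61.0% ± 1.72 at 5% O2, and LOX 0.742% ± 0.0407 and 1.88% ± 0.229.

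**Figure D2:**
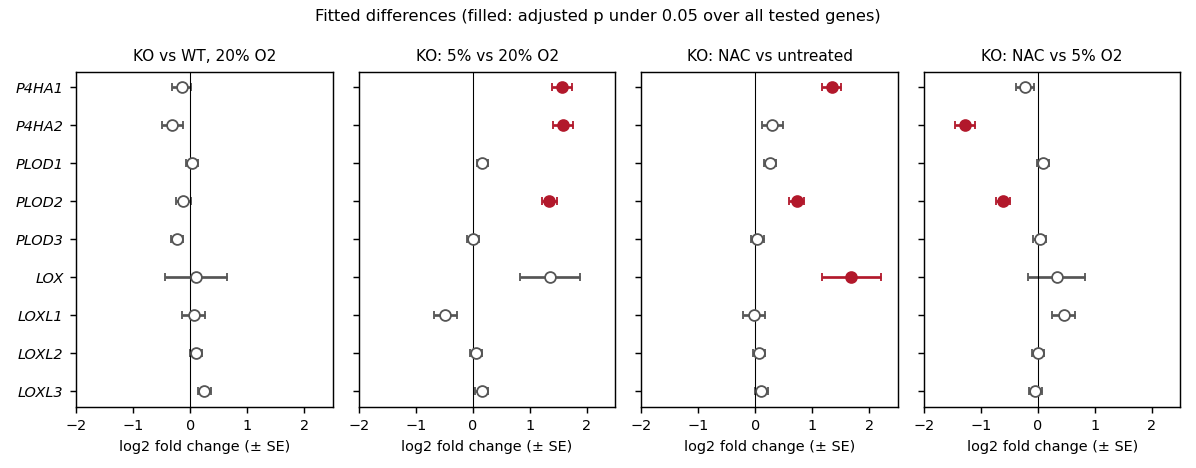
Log2 fold change with its standard error for the 9 tested genes in each of the 4 comparisons, with genes that passed an adjusted p of 0.05 as filled red points and the others as open points. In KO against WT cells all points lie between -0.32 and 0.25. At 5% O2, P4HA1, P4HA2, PLOD2 and LOX lie between 1.34 and 1.58, LOX with the widest error.

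HIF binds the core sequence ACGTG or GCGTG, and RefSeq windows around the transcription start (GRCh38.p14, 250 bases before to 50 after the start) were at hand for 8 of the 10 genes. ACGTG was found on either strand in windows of 3 of the 8 genes, P4HA1, PLOD2 and LOX, and in 21.4% of all 35116 windows. The stretches of 30 bases that hold it are shown 5′ to 3′ on the minus strand, on which all 3 genes lie, with ACGTG or its reverse complement CACGT in capitals, because these are 3 of the 4 genes with the highest fold changes at 5% O2.
P4HA1, chr10:73096935-73096964: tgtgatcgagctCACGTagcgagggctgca
PLOD2, chr3:146161367-146161396: cgtgagcctccaCACGTagccgcaggcagc
PLOD2, chr3:146161313-146161342: caaacagtccagACGTGgggcccaggaggg
LOX, chr5:122078427-122078456: gctccctgtgcaACGTGtctggggggagga
LOX, chr5:122078349-122078378: ttgCACGTttccaatcgcattACGTGaaca
LOX, chr5:122078284-122078313: gtaactttgcaaACGTGccagaaagtttaa
With -1 as the last base before the RefSeq start, the match in P4HA1 begins at -86, those in PLOD2 at -200 and -146, and those in LOX at -185, -116, -98 and -42 in the first of its 3 listed windows. GENCODE v44 annotates some transcripts of these genes that begin further upstream, so part of these bases is transcribed in that annotation. P4HA2 rose by as much as P4HA1, and its 1 listed window holds neither ACGTG nor GCGTG. The start of that window is chr5:132227091, whereas GENCODE v44 extends the gene upstream to chr5:132295315, where no window was searched. The windows of PLOD3 and LOXL1 also hold neither core. PLOD1, with 2 matches to GCGTG and none to ACGTG, showed no called change. GCGTG occurred in windows of 4 of the 8 genes and in 36.5% of all windows, and either core in 5 of the 8 and in 48.4% of all. The gene counts take any window of a gene, of which LOX has 3 and LOXL3 has 2, whereas the percentages are per single window. LOX and LOXL3 hold GCGTG only outside their first window. These are matches of letters within the windows and no measurement of binding.

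With NAC, 3 of the 9 genes were called higher than in untreated KO cells, P4HA1, PLOD2 and LOX, and none lower. Over all genes, 23.8% were called higher, 20.8% lower and 44.6% in either direction, so a share of 3 in 9 is close to the background. P4HA1 was at 116 CPM in the first and 73.3 CPM in the second NAC library, against 36.5 and 38.3 CPM without treatment. PLOD2 was at 68.1 and 50.2 CPM against 35.4 and 36.0 CPM. Both NAC libraries lay above both untreated libraries for these genes, the first further than the second. The log2 fold changes were 1.34 for P4HA1 (SE 0.17, adjusted p = 7.4e-05) and 0.73 for PLOD2 (SE 0.13, adjusted p = 0.000842). Without the first NAC library they were 0.97 (adjusted p = 1.53e-05) and 0.49 (adjusted p = 0.00273).

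LOX differed sharply between the NAC libraries. It was at 9.06 CPM (347 reads) in the first and 1.90 CPM (57 reads) in the second, against 1.73 and 1.70 CPM without treatment, so the second NAC library lay at the untreated level. The log2 fold change of 1.68 (SE 0.52, adjusted p = 0.02) became 0.15 (adjusted p = 0.761) without the first NAC library and 2.40 (adjusted p = 7.09e-06) without the second. The call was also lost without the first or the second untreated KO library (adjusted p = 0.0956 and 0.103, log2 fold change 1.70 and 1.67). The gap between the NAC libraries was 2.22 on the log2 scale, larger than that of 98.4% of genes, whose median gap was 0.23. The first NAC library is the one with DCN, LUM and PRRX1 reads. It also held 1114 reads of COL3A1, a fibrillar collagen of mesenchymal cells, of which the other libraries had 0 to 8, and 92 reads of the fifth lysyl oxidase LOXL4 against 16 to 42. The part of these transcripts in the LOX result was not tested.

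**Figure D3:**
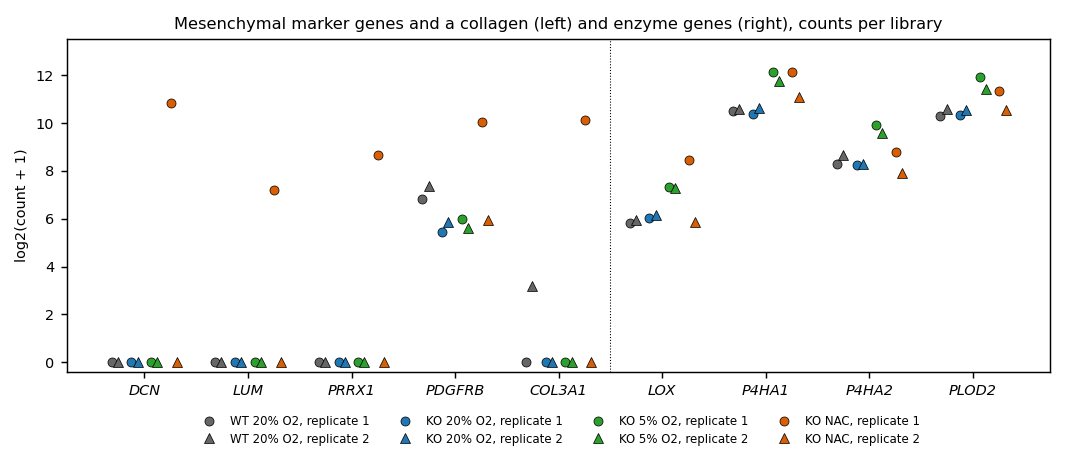
Read counts as log2(count + 1) in each library for 5 genes of mesenchymal cells (DCN, LUM, PRRX1, PDGFRB, COL3A1) and for LOX, P4HA1, P4HA2 and PLOD2. The first NAC library has 1809, 148 and 403 reads of DCN, LUM and PRRX1, which are at 0 elsewhere, and 347 reads of LOX against 55 to 161 in the others.

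The remaining 6 genes did not pass the test with NAC. P4HA2 was at 11.5 and 7.92 CPM against 8.21 and 7.63 CPM (log2 fold change 0.30, SE 0.18, adjusted p = 0.209), and only its first NAC library lay above the untreated ones. Without the first NAC library its log2 fold change was -0.0029 (adjusted p = 0.992), and without the second 0.54 (adjusted p = 0.0109). PLOD1, at 97.3 and 102 CPM against 82.5 and 84.8 CPM, came nearest to a call (0.26, SE 0.10, adjusted p = 0.0565) and passed when the first WT library was left out (adjusted p = 0.037). PLOD3, LOXL1, LOXL2 and LOXL3 had log2 fold changes of -0.03 to 0.10 and overlapping groups. With only the second NAC library these were 0.16 to 0.27, and PLOD1 was at 0.29 (adjusted p = 0.0535), again with none of the 5 called. For LOXL1 the NAC libraries, at 14.7 and 23.5 CPM, lay on either side of the untreated ones at 18.2 and 20.6 CPM.

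P4HA1 was called higher with NAC and P4HA2 was not, and the makeup of the prolyl 4-hydroxylase family with NAC lay apart from that in the other groups. P4HA1 took 94.1% ± 0.339 of the family's level per kilobase with NAC (SD, n = 2) against 88.5% ± 1.08 in untreated KO cells, 88.6% ± 0.0990 at 5% O2 and 87.5% ± 1.70 in WT cells. P4HA2 took 5.88% ± 0.336, against 11.3% ± 0.849, 11.4% ± 0.0990 and 12.5% ± 1.70. Both NAC libraries lay outside the range of the other 6, and no test was made on the shares. The shares were not corrected for the trend in GC content given below, and P4HA1 and P4HA2 transcripts have 39.7% and 45.0% GC. The NAC libraries differed more in the lysyl hydroxylases, where PLOD2 took 23.4% ± 5.08 and PLOD1 49.8% ± 1.64.

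**Figure D4:**
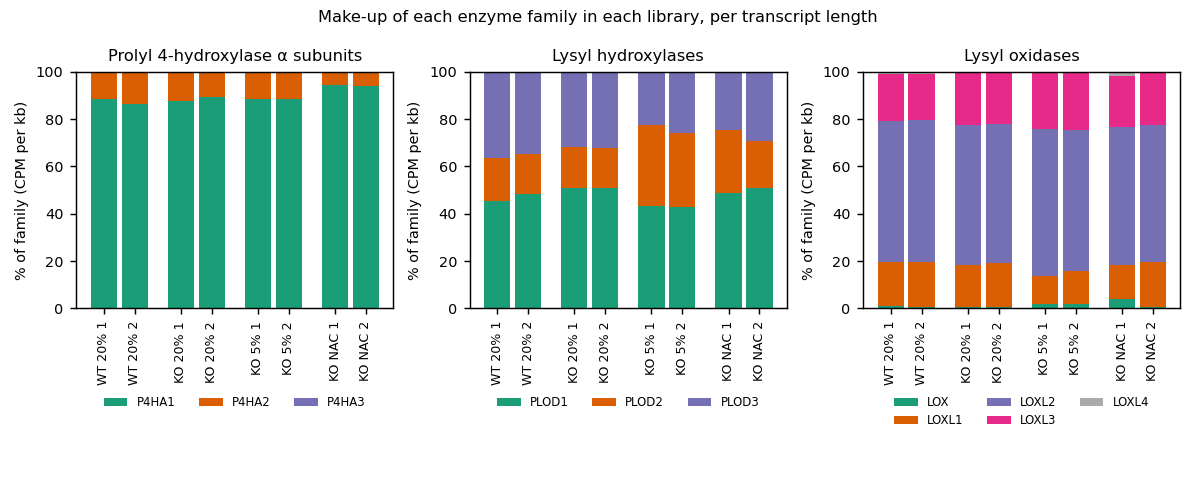
Share of each gene in the summed level per kilobase of its family (%), as stacked bars with 1 bar per library. The P4HA1 share averages 94.1% with NAC and 87.5% to 88.6% in the other groups, the PLOD2 share 32.9% at 5% O2 and 17.2% to 23.4% in the others, and LOXL2 holds 58.1% to 61.0% of the lysyl oxidases in every group.

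Genes with little GC in their transcripts were higher with NAC as a whole, and the genes called here are among them. Across 15026 genes, Spearman's rho between GC content and log2 fold change was -0.5 with NAC and -0.335 at 5% O2, a description over genes that share libraries. With NAC the median log2 fold change was 0.50 for genes of 35% to 40% GC and -0.26 for those of 55% to 60%. PLOD2, LOX and P4HA1 transcripts have 37.7%, 39.6% and 39.7% GC, P4HA2 has 45.0%, and PLOD1, PLOD3, LOXL1, LOXL2 and LOXL3 have 55.4% to 67.0%. With the trend in length and GC taken out, P4HA1 kept its NAC call (log2 fold change 0.78, adjusted p = 0.00576), while PLOD2 (0.20, adjusted p = 0.299) and LOX (1.40, adjusted p = 0.0782) lost theirs. PLOD1 (0.62, adjusted p = 0.000785), PLOD3 (0.45, adjusted p = 0.0056), LOXL2 (0.49, adjusted p = 0.00389) and LOXL3 (0.45, adjusted p = 0.00995) were then called higher, beside 14.6% of all genes. At 5% O2 the same 3 genes were called with the trend removed, with log2 fold changes of 1.36 for P4HA1, 1.60 for P4HA2 and 1.16 for PLOD2, beside 1.65% of all genes called higher.

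**Figure D5:**
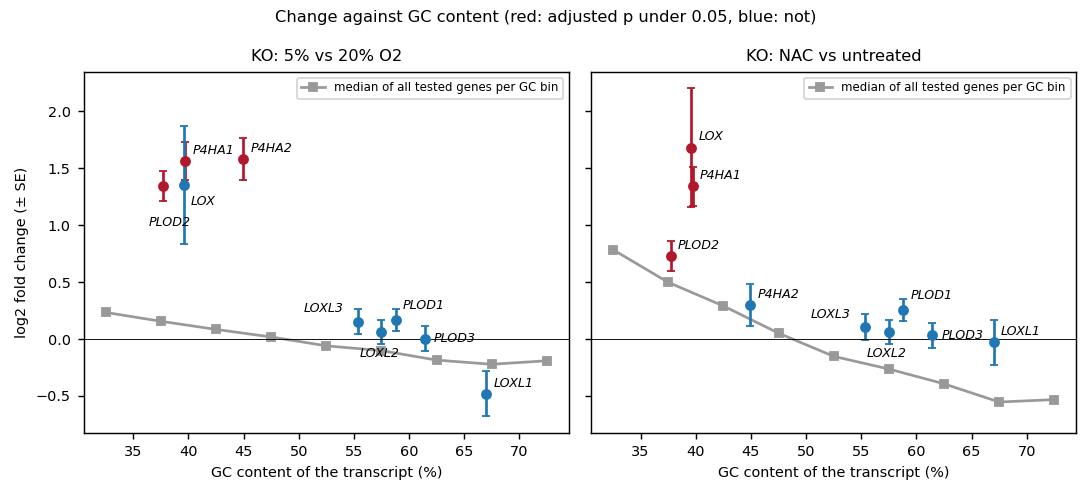
Log2 fold change with its standard error against the GC content of the transcript (%) for the 9 tested genes, at 5% O2 (left) and with NAC (right), with the median of all tested genes in each bin of GC as a grey line. With NAC the grey line falls from 0.50 at 35% to 40% GC to -0.55 at 65% to 70%, and PLOD2, LOX and P4HA1 lie at its high end.

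The responses to 5% O2 and to NAC share the untreated KO libraries, so the treatments were also compared with each other directly. P4HA2 and PLOD2 were lower with NAC than at 5% O2, 2 of the 9 genes, against 13.6% of all genes called lower and 29.1% called in either direction. P4HA2 was at 11.5 and 7.92 CPM with NAC and at 23.8 and 23.6 CPM at 5% O2 (log2 fold change -1.28, SE 0.18, adjusted p = 0.000692). PLOD2 was at 68.1 and 50.2 CPM against 94.9 and 86.2 CPM (-0.61, SE 0.13, adjusted p = 0.00532). In both genes the groups did not overlap. The PLOD2 call was narrowly lost without the first 5% O2 library (log2 fold change -0.54, adjusted p = 0.0501), and the P4HA2 call was kept without any 1 library.

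P4HA1 did not differ detectably between NAC, at 116 and 73.3 CPM, and 5% O2, at 112 and 109.6 CPM (log2 fold change -0.23, SE 0.16, adjusted p = 0.333). This rests on the first NAC library, without which the log2 fold change was -0.60, and on the trend in length and GC. With the trend removed, P4HA1 was at 0.78 with NAC and 1.36 at 5% O2, both against untreated KO cells. Of the 9 genes, 3 were then lower with NAC than at 5% O2, P4HA1 among them. All 3 were called, beside 7.89% of all genes called lower. LOX changed direction with the NAC library left out: its log2 fold change was 0.33 (SE 0.50, adjusted p = 0.665) with both, -1.21 (adjusted p = 0.0158) without the first and 1.04 (adjusted p = 0.00617) without the second. LOXL1 was at 14.7 and 23.5 CPM with NAC and 12.7 and 15.1 CPM at 5% O2 (0.45, SE 0.20, adjusted p = 0.108), and at 0.75 (adjusted p = 0.00307) without the first NAC library. PLOD1, PLOD3, LOXL2 and LOXL3 had log2 fold changes of -0.05 to 0.09. By the study's own rule, an absolute log2 fold change over 1 with an unadjusted p under 0.05, the counts of enzymes were 0 in KO against WT cells, 4 at 5% O2 (LOX was the added gene), 2 with NAC (P4HA1 and LOX) and 1 between the treatments (P4HA2), beside 2.57%, 2.02%, 9.02% and 4.42% of all genes.

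Other proteins that fold, modify and trim procollagen were read from a list of 22 genes. Of these, 0 were called in KO against WT cells, where 4 had an unadjusted p under 0.05 and DESeq2 called 1 higher and 1 lower. Without the first NAC library some were called in either direction, at a median log2 fold change of -0.0090 against -0.0093. At 5% O2, 1 was called higher and 0 lower, beside 3.68% and 4.13% of all genes. It was P3H2, a prolyl 3-hydroxylase that acts on collagen IV, at 43.0 ± 1.81 CPM against 28.6 ± 3.34 CPM (log2 fold change 0.59, SE 0.16, adjusted p = 0.0423). DESeq2 called 2 higher and 1 lower of the 18 it tested there, beside 1081 and 1063 of 11596 genes. With NAC, 5 of the 22 were called higher and 1 lower, beside 23.8% and 20.8% of all genes, and without the first NAC library the counts were again 5 and 1, beside 21.2% and 19.7%. The largest were P3H2 (log2 fold change 0.75, adjusted p = 0.00205), FKBP10, a prolyl isomerase of the endoplasmic reticulum (0.47, adjusted p = 0.000863), and CRTAP, a subunit of the prolyl 3-hydroxylase complex (0.39, adjusted p = 0.00579). ADAMTS2, which removes the amino-terminal propeptide, was lower (-1.04, adjusted p = 0.00059). Without the first NAC library P3H2 was at 0.46 (adjusted p = 0.0109), FKBP10 at 0.56 (adjusted p = 0.000203), CRTAP at 0.25 (adjusted p = 0.0374) and ADAMTS2 at -1.19 (adjusted p = 0.000297). With the trend in length and GC removed, the NAC counts became 10 higher and 0 lower, beside 14.6% and 10.5% of all genes. Between NAC and 5% O2, FKBP10 was the 1 gene called, higher with NAC (0.32, adjusted p = 0.0173, beside 15.5% of all genes called higher). Without the first NAC library FKBP10 was again called higher (0.40, adjusted p = 0.00558) and ADAMTS2 lower (-0.61, adjusted p = 0.0363).

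P4HB, the partner without which P4HA subunits are inactive, was at 594 and 634 CPM in untreated KO cells and at 707 and 713 CPM at 5% O2 (log2 fold change 0.21, adjusted p = 0.118). In WT cells it was at 619.5 and 641.5 CPM. With NAC it was at 628 and 669 CPM (0.08, adjusted p = 0.443). The P4HB level thus stayed within a far narrower range than those of P4HA1 and P4HA2.

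Of 18 tested collagens and elastic fibre genes, the substrates of these enzymes, 0 were called at 5% O2, where 3 had an unadjusted p under 0.05, as did 24.8% of all genes, and DESeq2 called 0 higher and 1 lower. In KO against WT cells 2 were called lower, beside 0.622% of all genes, COL4A5 (log2 fold change -0.79, adjusted p = 0.0308) and COL4A6 (-0.69, adjusted p = 0.0157), both chains of basement membrane collagen. COL4A1 and COL4A2, also chains of that kind, lay the other way without a call (0.27 and 0.37, adjusted p = 0.21 and 0.19). Of the 18, 12 had a positive and 6 a negative log2 fold change, and 7 had an unadjusted p under 0.05, as did 17.6% of all genes. DESeq2 called 1 higher and 2 lower, beside 545 and 315 of 14373 genes. Without the first NAC library some of the 18 were called in either direction, at a median log2 fold change of 0.2124 against 0.212. With NAC 2 of the 18 were called higher and 6 lower, beside 23.8% and 20.8% of all genes, the largest changes being FBN1 (1.96, adjusted p = 0.00928), with 1004 reads in the first NAC library and 157 in the second, and COL5A2 (-0.92, adjusted p = 4.78e-05). Without the first NAC library FBN1 was at 0.37 (adjusted p = 0.298), its call lost, and COL5A2 at -0.81 (adjusted p = 8.14e-05). The counts turned to 9 higher and 1 lower with the length and GC trend removed, beside 14.6% and 10.5% of all genes, and were 2 higher and 8 lower without the first NAC library, beside 21.2% and 19.7%. Between NAC and 5% O2, 1 was called higher and 4 lower, beside 15.5% and 13.6% of all genes, and without the first NAC library 1 and 7, beside 13.4% and 12.8%.

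A list of 24 other HIF targets was read beside P4HA1, P4HA2, PLOD2 and LOX. It was chosen with the responses of these cells already known and is no independent evidence. In KO against WT cells 0 of the 24 were called, 4 had an unadjusted p under 0.05, and DESeq2 called 0 higher and 1 lower. Their median log2 fold change was -0.0951, against -0.0024 over all genes. Without the first NAC library some of the 24 were called lower in this comparison, at a median of -0.0949. At 5% O2, 17 were called higher and 0 lower, beside 3.68% and 4.13% of all genes, with a median of 1.53, the largest being DDIT4 (3.43) and PDK1 (3.04). With NAC, 13 were called higher, beside 23.8% of all genes, with a median of 0.44. Without the first NAC library 9 were higher and 2 lower, beside 21.2% and 19.7%, with a median of 0.10. DDIT4 was at 163 CPM in the first NAC library and 15.2 CPM in the second, against 17.3 and 17.4 CPM without treatment. Between NAC and 5% O2, 15 of the 24 were lower with NAC, beside 13.6% of all genes, with a median of -0.83, and without the first NAC library 21 were lower, beside 12.8%, with a median of -1.10. P4HA1, with a log2 fold change of 0.97 without the first NAC library, stayed further from the untreated level than the median of this list.

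The genes most like each enzyme were sought by the root mean square difference between centred log2 CPM values over the 8 libraries. P4HA1 was most like INSIG2 (0.17), a regulator of cholesterol synthesis, BNIP3L (0.17), a receptor for the removal of mitochondria, and EDNRB (0.20), an endothelin receptor. INSIG2 was at 5.47 and 4.98 CPM in untreated KO cells, 16.5 and 16.5 CPM at 5% O2 and 14.0 and 8.45 CPM with NAC, so the libraries high in P4HA1 were high in INSIG2. INSIG2 and BNIP3L are also on the list of HIF targets. PLOD2 was most like BNIP3L (0.09), GBE1 (0.12), the glycogen branching enzyme, and C4orf3 (0.15). BNIP3L was at 36.0 and 39.0, 107 and 98.7, and 83.9 and 56.8 CPM in the same groups. LOX had no neighbour as close: TXNIP (0.31), an inhibitor of thioredoxin, SLC1A1 (0.41), a glutamate transporter, and HIC1 (0.42) came nearest, and in each the first NAC library was the highest of the 8. These distances describe 8 libraries that share groups and carry no test.

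Some reads of these genes could not be assigned without doubt. The library kit does not mark strand, and exons of P4HA1, P4HA2, LOX, LOXL1, LOXL2, LOXL3 and PLOD3 overlap genes on the opposite strand in GENCODE v44, SRFBP1 in the case of LOX, whereas PLOD1 and PLOD2 have no such overlap. LOXL2 also overlaps exons of ENTPD4 on its own strand. P4HA2 also shares 6.22% of its 31-base words with alternate scaffolds of hg38, and the other members share none.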

How the data were processed

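RNA-seq of WA26 hESCs was analysed in 8 libraries. A further 4 samples, WT cells under either treatment, were not used here. The authors used HISAT2 on the hg38 genome after trimming, and featureCounts with its defaults, so that strand played no role and reads with several matches were dropped. FastQC 0.11.9 is named in the submitters' processing notes, and the annotation is not given in the sources used here. The deposited table holds whole-number read counts of each gene with no scaling.

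Counts were filtered (filterByExpr, minimum count 10), scaled by TMM and compared by edgeR 4.0.16 (R 4.3.3, quasi-likelihood F test), with a term per group over all 8 libraries (4 residual degrees of freedom, biological coefficient of variation 13.7%). P-values were adjusted by Benjamini-Hochberg over 15916 genes, and a call is an adjusted p under 0.05. CPM values use TMM-scaled totals. Transcript lengths and GC content are from GENCODE v44 and known for 94.4% of tested genes. The trend in both was estimated with mgcv 1.9.3 and entered as an offset. The script was tested on simulated data. Replicates differed beyond sampling noise in every group (chi-square per degree of freedom 9.53 to 30.7). Named genes are the enzymes themselves, P4HB, up to 3 called genes per direction of the procollagen list and up to 2 of other lists by absolute log2 fold change, and the 3 genes most like P4HA1, PLOD2 and LOX. Further genes are named to qualify a sum, a count or a standard error. The members and gene lists were chosen with earlier results of these data known. Alternatives were DESeq2 1.42.0, other normalizations and filters, a replicate block, only the libraries compared, removal of the length and GC trend, the study's fold rule and leaving out each library. Those for the gene lists by DESeq2, without the first NAC library or without the trend were chosen after seeing the data.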

Additional observations from a re-analysis of the deposited data

Results flagged for a closer look

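A pair of enzymes responded differently to the treatments by a direct test of NAC against 5% O2 in UBQLN1-/- hESCs. P4HA2 had a log2 fold change of -1.28, and was lower in both NAC libraries than in both 5% O2 libraries, and PLOD2 had a log2 fold change of -0.61, likewise in 2 of 2 libraries. Of all genes, 13.6% were called lower with NAC, 29.1% in either direction, and 62.7% had groups without overlap. The PLOD2 call was lost without the first 5% O2 library (adjusted p = 0.0501). The cause of either difference was not tested.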

How the results depend on the processing

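The count of enzymes called was 0 in KO against WT cells under every alternative. At 5% O2 it was 3 and became 5 without the filter on low counts and in the fit of only the libraries compared, and 3 to 5 with each library left out in turn, 5 being without either NAC library (16.8% of all genes without the first). With NAC it was 3, became 5 with the length and GC trend removed, where 25.1% of all genes were called, and was 2 to 4 with each library left out. Between NAC and 5% O2 it was 2, became 5 with the trend removed (15.5% of all genes) and 1 under the study's fold rule (4.42%), and was 1 to 5 with each library left out, 5 being without the first NAC library (26.3%). Same-numbered libraries did not deviate together (correlations of -0.0226 to 0.0816), so the numbers do not pair them. A replicate block gave 0, 3, 4 and 2 calls, the added call being PLOD1 with NAC (adjusted p = 0.0458). The log2 fold changes that turned direction were all uncalled with all libraries. With the trend removed, PLOD1 and LOXL1 in KO against WT cells were at -0.022 and -0.022, LOXL1 with NAC at 0.46 and LOXL3 between the treatments at 0.15. PLOD3 at 5% O2 was at -0.0027 with at least 10 counts in every library and at -0.00022 with only the libraries compared, where it was at -0.0056 between the treatments. LOXL2 between the treatments was at -0.026 by DESeq2 and RLE normalization, -0.025 by upper quartile normalization, -0.0031 without a filter, -0.0046 with at least 10 counts in every library, -0.0034 with the block and -0.033 with only the libraries compared. With each library left out in turn, ranges that crossed 0 were, in KO against WT cells, -0.092 to 0.17 for PLOD1 and -0.033 to 0.15 for LOXL1, and at 5% O2 -0.081 to 0.083 for PLOD3. With NAC they were -0.0029 to 0.54 for P4HA2, -0.11 to 0.16 for PLOD3, -0.40 to 0.27 for LOXL1, -0.086 to 0.20 for LOXL2 and -0.047 to 0.24 for LOXL3. Between the treatments they were -0.60 to 0.067 for P4HA1, -0.11 to 0.16 for PLOD3, -1.21 to 1.04 for LOX, -0.15 to 0.14 for LOXL2 and -0.20 to 0.084 for LOXL3. Where 1 library of a group was left out, the lone library was assumed to vary like the other groups. The cause of these changes was not tested. With 2 libraries a group and a spread shared with the NAC libraries, small changes of LOX could not be seen at standard errors of 0.50 to 0.54.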
